A study of Macaca mulatta with 38 samples.

Results

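34 barcodes were abundant in T libraries and scarce in the myeloid libraries of 1 rhesus macaque, out of 44423 barcode sequences in the table. Each barcode is a stretch of DNA carried into a cell's genome by a lentiviral vector and passed on to the cell's descendants. Members were chosen by their read shares. Each had at least 0.2% of the reads in any T library of day 119 or later. It also had below 0.1% in every Gr and Mono library of those days, and a mean below 0.5% over the nRBC libraries. 83 barcodes reached the T threshold, and the other 49 did not stay under the Gr and Mono limit. 7 of those 49 were also above the nRBC limit.

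The animal, ZL34, was a male of 4 years. Its CD34+ stem and progenitor cells, mobilised with G-CSF/AMD1300, were transduced with the barcode library at a multiplicity of infection of 25 and returned after TBI, and it was given cidofovir at 5 mg/kg every week. All groups come from this animal and share this treatment, and there was no untreated or second animal. The labels name 9 T libraries (days 32 to 553), 8 B, 7 Gr, 7 Mono, 5 nRBC (from day 266), 1 EOS (day 494) and 1 CD34p (day 553), all from peripheral blood. The labels do not say how the cells were sorted, and barcode counts hold no marker genes by which the labelled types could be checked.

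Kept reads ran from 766039 to 3832849 per library and were fewest in T and B of day 494, at 766039 and 789584. No count from 1 to 100 occurs in the table, so a listed 0 was taken as 100 reads or fewer. That limit is 0.00289 to 0.0131% of reads for T, 0.00297 to 0.0127% for B, 0.00263 to 0.00695% for Gr and 0.00264 to 0.00520% for Mono. Each lineage and day has 1 library, so differences between days have no replicate. Intervals below are exact Clopper-Pearson intervals at 95% and reflect the counting of reads alone. PCR copies that carry no molecular identifier are not separate molecules.

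T cells develop in the thymus from progenitors that leave the marrow, and mature T cells can live long and divide in the periphery. Granulocytes are short-lived and are replaced steadily from marrow progenitors. A barcode's share in T therefore carries cells made at many earlier times, whereas its share in Gr reflects recent output. A cell that took up several vector copies passes on several barcodes, which then share 1 time course.

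The sequences below are those that the T time courses turn on. Barcodes are numbered by mean share over the 38 libraries. Each run is the deposited sequence up to the sequencing adapter, with the constant start in lower case and the variable part in capitals. The first 7 had the highest mean shares in T and were highest on day 494.
bc13: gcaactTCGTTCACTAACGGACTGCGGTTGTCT
bc15: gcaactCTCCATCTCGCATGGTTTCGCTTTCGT
bc18: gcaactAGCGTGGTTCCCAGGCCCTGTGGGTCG
bc19: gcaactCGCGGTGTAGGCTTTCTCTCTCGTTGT
bc21: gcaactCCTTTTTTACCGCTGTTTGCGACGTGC
bc23: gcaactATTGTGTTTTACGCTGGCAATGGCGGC
bc28: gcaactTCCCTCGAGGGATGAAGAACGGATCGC

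The next 6 were highest in T on day 119 and were listed in Gr and Mono of day 32.
bc47: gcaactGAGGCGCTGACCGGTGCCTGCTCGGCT
bc48: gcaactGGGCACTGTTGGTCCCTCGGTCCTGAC
bc50: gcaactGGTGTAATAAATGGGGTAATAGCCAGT
bc51: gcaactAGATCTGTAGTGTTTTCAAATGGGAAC
bc52: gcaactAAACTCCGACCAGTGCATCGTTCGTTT
bc53: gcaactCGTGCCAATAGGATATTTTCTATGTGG

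The next 3 were those with a higher share in B than in T among the 14 members listed in both on day 119. The last 3 were the latest to be listed in any library, on day 187 (bc113) and day 266 (bc96, bc176). bc144 and bc210 were also first listed on day 187, and bc113 was taken for its higher mean T share.
bc65: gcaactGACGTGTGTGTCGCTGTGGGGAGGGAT
bc81: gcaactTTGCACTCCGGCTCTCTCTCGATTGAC
bc95: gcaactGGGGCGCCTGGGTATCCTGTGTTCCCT
bc96: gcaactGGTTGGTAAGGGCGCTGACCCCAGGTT
bc113: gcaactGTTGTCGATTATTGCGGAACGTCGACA
bc176: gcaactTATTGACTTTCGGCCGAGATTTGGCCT

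The members were unrelated in sequence. The variable part was 27 bases long in 31 of 34, and any 2 members differed at 12 or more of its first 26 bases. No sequence in the table lay 1 mismatch from a member, and the same held for every other barcode of the table. Their GC content ran from 37.0 to 74.1% with a median of 53.7%, against a median of 53.6% over the 43568 barcodes in which the start and the adapter were found.

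At the thresholds, bc81, bc166 and bc95 lay just inside with highest T shares of 0.203%, 0.210% and 0.226%, and bc126, bc267 and bc109 just outside with 0.199%, 0.196% and 0.192%. The highest Gr or Mono shares inside the limit were 0.0737% in bc52, 0.0717% in bc95 and 0.0657% in bc48. The lowest outside it were 0.182% in bc80, 0.216% in bc78 and 0.253% in bc64, so no barcode that met the T threshold fell between 0.0737% and 0.182%. The highest nRBC means inside were 0.00144% in bc13, 0.00133% in bc19 and 0.00132% in bc23, against 1.36% in bc11, 14.3% in bc6 and 14.4% in bc5 outside. These values chose the members, so the T levels that follow are a description with no test.

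Together the 34 barcodes held 40.1% of T reads on day 494 and were all listed at 0 in T on day 32. Their summed share in T was 8.78% on day 119, 9.48% on day 187, 11.3% on day 266, 12.7% on day 365, 15.2% on day 393, 40.1% on day 494, 31.2% on day 536 and 11.2% on day 553. The interval was 39.9 to 40.2% on day 494, the shallowest T library, and 31.2 to 31.3% on day 536, which had 3081525 reads. The T library of day 32 listed 525 barcodes, and none of the other 49 was listed in it either. 20 members were listed in T on day 119, 28 on day 187, 33 on day 266, 34 from day 365 to day 536 and 32 on day 553. Of the 10 most abundant barcodes in T, 0 were members on days 119, 187 and 365, 3 on day 266, 5 on day 393, 7 on days 494 and 536, and 1 on day 553.

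The lower sum on day 553 stood beside a high share of other barcodes. The 6 barcodes with a mean of at least 5% in nRBC held 48.9% of T reads on day 553, against 13.1% on day 536 and 3.98% on day 494. With those 6 removed from the denominator, the members held 21.9% of the remaining T reads on day 553, 35.9% on day 536 and 41.7% on day 494. From day 536 to day 553, 34 of 34 members had a lower share of all T reads, and 26 of 34 had a lower share of the remaining reads. The median share of a member on day 553 was 0.404 times that on day 536, among 32 listed on both days, and 0.734 times for the other 49 barcodes, of which 40 were lower.

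Within the set, T time courses differed mainly in when the share was highest. 10 members were highest on day 119, 2 on day 187, 2 on day 393, 17 on day 494 and 3 on day 536. The 10 of day 119 held 8.24% of T reads then and 1.21% on day 553. The 20 of days 494 and 536 held 0.0623% on day 119, 4.18% on day 187, 36.5% on day 494 and 9.63% on day 553. 19 of the 34 members stayed below 0.5% in every T library, and 12 reached 1%.

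The 7 barcodes bc13, bc15, bc18 and bc19 with bc21, bc23 and bc28 made up most of the sum from day 266 on. They held 0.0168% of T reads on day 119, with 3 of 7 listed, and 3.94% on day 187, with 7 of 7 listed. The sum was 6.92% on day 266, 7.46% on day 365, 9.46% on day 393, 32.9% on day 494, 25.7% on day 536 and 8.74% on day 553. bc13 was listed at 0 in T of days 32 and 119, and held 0.712% on day 187, 1.22% on day 266, 1.45% on day 365, 1.53% on day 393, 5.65% on day 494 (interval 5.60 to 5.71%), 4.06% on day 536 and 1.22% on day 553. bc15 held 0.00464% on day 119, 0.523% on day 187, 5.46% on day 494 and 1.42% on day 553. The levels of the 7 stayed close to each other, with the highest 1.28 to 2.14 times the lowest from day 187 to day 536. On day 553 that ratio was 3.01, with bc18 at 1.72% and bc19 at 0.570%.

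13 further members were highest on day 494 or 536, at 0.210 to 0.516%. bc65 held 0.0131% on day 119, 0.462% on day 494 and 0.516% on day 536. bc96 was not listed in any library before T of day 266, where it held 0.00569%, and held 0.121% on day 365 and 0.314% on day 494. bc176 was first listed on day 266, with 0.0328% in T, and held 0.0340% on day 393, 0.328% on day 494 and 0.139% on day 536. bc96 and bc176 were thus low or unlisted in T up to day 266 and at their highest on day 494. bc166, the lowest of these 13 at its highest point, held 0.0908% on day 393 and 0.210% on day 494.

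The 6 barcodes bc47, bc48, bc50, bc51, bc52 and bc53 had the opposite order in T. Their sum was 6.93% on day 119, 3.70% on day 187, 2.85% on day 266, 2.51% on day 365, 2.56% on day 393, 2.29% on day 494, 1.57% on day 536 and 1.06% on day 553. bc47 held 1.27% on day 119 (interval 1.25 to 1.28%), 0.843% on day 187, 0.492% on day 266, 0.358% on day 365, 0.469% on day 393, 0.354% on day 494, 0.255% on day 536 and 0.178% on day 553. bc50 held 1.26% on day 119 and 0.157% on day 553. All 6 were listed in each T library from day 119 on, and the highest of them was 1.14 to 1.63 times the lowest up to day 536. On day 553 the ratio was 3.90, with bc53 at 0.227% and bc52 at 0.0584%. The other 4 members that were highest on day 119, named after their values were seen, were bc74, bc76, bc79 and bc98, at 0.306 to 0.362%.

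4 members were highest in T between these 2 sets. bc113 held 0.288% on day 187, its first listing in T, then 0.0540% on day 266, 0.160% on day 365, 0.0370% on day 393 and 0.124% on day 494. bc81 held 0.0297% on day 119, 0.149% on day 187, 0.203% on day 393 and 0.0751% on day 553. bc58 and bc70 were also named after their values were seen. bc58 was listed at 0 in T of day 119 and held 0.536% on day 187, 0.352 to 0.489% up to day 494 and 0.216% on day 553. bc70 went up and down by turns, with 0.446% on day 119, 0.0159% on day 266, 0.463% on day 393, 0.0454% on day 494, 0.168% on day 536 and a listed 0 on day 553. bc98, which was highest on day 119, had a like order of low and high days, with 0.333% on day 119, 0.0228% on day 266, 0.179% on day 393, 0.0920% on day 494 and a listed 0 on day 553. bc70 and bc98 were the only members at 0 in T of day 553.

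Members were also compared by the shape of their courses over all lineages and days. Pearson's r of log2(percent + 0.01) was taken over the 38 libraries, which share depth and denominator within a library. Most of these libraries were used by the rule that chose the members, so a high r was partly set by that choice. The groups are a description with no test. Barcodes were joined only where every pair had r of at least 0.95. 84 of the 561 pairs reached that value, and 25 members fell into 7 groups, with 9 left alone. The largest group was the 7 barcodes from bc13 to bc28 with bc166 (lowest r 0.963). The next was bc47, bc48, bc50, bc51, bc52 and bc53 (lowest r 0.972). A group of 3 held bc123, bc144 and bc146, and the 4 pairs were bc58 with bc113, bc74 with bc79, bc96 with bc100, and bc176 with bc210. In the last pair, bc176 and bc210 held 0.328% and 0.303% of T reads on day 494, and 0.0705% and 0.0334% on day 553. The pair of bc58 and bc113 had the lowest r (0.952), with bc58 at 1.86 times bc113 in T on day 187 and 9.53 times on day 393, and it was lost with r of 0.98, with either other pseudocount and over T libraries alone. Whether the barcodes of a group sat in 1 founder cell was not tested. With a pseudocount of 0.001 the largest group held 3 members.

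21 of 34 members were listed in another lineage on an earlier day than in T, 7 appeared in T and another lineage on the same day, and 6 appeared in T alone. On day 32 the counts were 12 members in B, 12 in Gr, 11 in Mono and 0 in T. 17 members were listed in at least 1 library of that day, 12 were first listed on day 119, 3 on day 187 and 2 on day 266. Over all barcodes of the table, 35.6% were listed in B, 19.9% in Gr, 23.0% in Mono and 1.18% in T of day 32. The other 49 barcodes that reached 0.2% in T were listed in 19, 39, 42 and 0 cases in the same libraries. In some library of day 32, 17 of 34 members and 44 of those 49 were listed. T of day 32 listed the fewest barcodes of the 4 libraries, and a barcode at up to 0.00582% of its reads would be at 0 there.

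Among the members, those highest in T on day 119 were most often listed in the day 32 myeloid libraries. 8 of those 10 were listed in Gr of day 32 and 7 of 10 in Mono. The counts were 1 and 2 of the 4 highest on day 187 or 393, and 3 and 2 of the 20 highest on day 494 or 536. The barcodes from bc47 to bc53, which fell into 1 group, made up 6 of the 8 and 6 of the 7. In the same 2 libraries, 19.9% and 23.0% of all barcodes were listed, and 39 and 42 of the other 49. bc51 held 0.151% of Mono, 0.0228% of Gr and 0.00808% of B reads on day 32. bc50 held 0.126% of Mono, 0.0558% of Gr and 0.00981% of B, and bc53 held 0.130%, 0.0387% and 0.00777% in the same order. The 6 barcodes from bc47 to bc53 summed to 0.724% of Mono and 0.206% of Gr on day 32, with 6 of 6 listed in both. On day 119 they summed to 0.377% of Mono and 0.305% of Gr, against 6.93% of T. Of the 7 barcodes from bc13 to bc28, 3 were listed in B of day 32 (bc13, bc21 and bc23, at 0.00404 to 0.01004%), 1 in Gr (bc13, 0.0122%) and 0 in Mono. The day 32 libraries were not used by the rule that chose the members.

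Low shares in B were common. 31 of 34 members were listed in some B library of day 119 or later, against 49 of 49 of the other barcodes that reached 0.2% in T. Over the whole table, 36063 of 44423 barcodes were listed in some B library, day 32 included, so being listed in B was not particular to members. The summed share in B was 0.0903% on day 32, 0.311% on day 119, 0.215% on day 187, 0.219% on day 266, 0.374% on day 365, 0.183% on day 393, 0.272% on day 494 and 0.145% on day 553. The sum in B was 0.679 to 3.54% of the sum in T from day 119 on, with the lowest value on day 494. 10 members were listed in at least 6 of the 7 B libraries of day 119 or later, and 3 were at 0 in every B library. Counted only at shares that would be listed in the shallowest library, 20 members were seen in B from day 119 on, and 1 on day 32.

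bc65 had the highest share of any member in B. Its share in B was 0.0249% on day 119, 0.0301% on day 187, 0.0519% on day 266, 0.0316% on day 365, 0.0388% on day 393, 0.0557% on day 494 and 0.00995% on day 553. Set over its share in T, B was at 190% on day 119, 207.5% on day 187, 110% on day 266, 29.2% on day 365, 12.1% on day 494 and 5.62% on day 553. bc65 was thus as high in B as in T early on, and its later excess in T came with a share in B that stayed within 0.00995 to 0.0557%. bc81 held 0.0300% of B and 0.0297% of T reads on day 119, and 0.0453% of B and 0.196% of T on day 365. bc95 held 0.0109% of B and 0.00891% of T reads on day 119, and 0.0360% of B and 0.0386% of T on day 494. bc47 had its highest share in B, 0.0437%, on day 119, when it held 1.27% of T. For the median member listed in both, B was at 2.34 to 3.86% of T on 6 of the 7 days and at 0.556% on day 494, when B was shallowest and 11 members were listed.

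Shares in B were tested for a trend over days, since B libraries were not used to choose the members. edgeR's quasi-likelihood test of the slope per 100 days ran over 4192 barcodes, those that reached 0.01% of reads in 2 or more of the 8 B libraries. It called 0 barcodes (0%) at an adjusted p under 0.05, with 159 at an unadjusted p under 0.05. 19 members passed the filter, of which 0 were called and 0 had an unadjusted p under 0.05 in this edgeR fit. In other edgeR fits the unadjusted p was 0.019 for bc50 without day 365 and 0.023 for bc79 with no filter, and neither was called. DESeq2 called 154 of the 4192, none of them a member, and its unadjusted p for bc50 was 0.016. The median slope was 0.18 log2 units per 100 days over the 19 members and 0.22 over all 4192, and 13 of 19 slopes were above 0. These values rested on single libraries and on the scaling. Without day 32 the medians were −0.01 and 0.07 with 8 of 18 slopes above 0, and with TMM factors 0.01 and 0.10 with 10 of 19 above 0. For members and all barcodes the medians were 0.26 and 0.38 without day 119, 0.10 and 0.16 without day 494, and 0.37 and 0.38 without day 553. Slopes ran from −1.54 ± 1.09 (SE) in bc50 to 1.22 ± 1.20 in bc15, both with adjusted p = 0.999 by edgeR. The SE was worked back from the test, as the size of the slope over the square root of its F statistic. The p-values take serial libraries of 1 animal as independent, and they do not show that the shares in B were constant.

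Traces in Gr and Mono were listed for 26 of 34 members from day 119 on, and 8 were at 0 in all 12 such libraries. Of all barcodes in the table, a single library of these listed from 0.0270% (Mono of day 494) to 11.0% (Gr of day 266). The share of all barcodes listed in any of the 12 was not taken, so 26 of 34 has no like value to be read against. Counted only at shares that would be listed in the shallowest library, 19 members were seen in Gr or Mono from day 119 on. That shares there were low follows from the rule. The summed share was 0.4135% on day 119, 0.117% on day 187, 0.152% on day 266, 0.0478% on day 365, 0.0143% on day 494 and 0.0364% on day 553 in Gr. In Mono it was 0.498%, 0.103%, 0.0973%, 0.158%, 0 and 0.00813% on the same days. From day 119 to day 266 the members listed there were mostly those highest in T on day 119 with bc65, bc81 and bc95. From day 494 on, the listed members were all among the 7 from bc13 to bc28.

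bc95 had the highest Gr share relative to T among members listed in both. bc90, named after its values were seen, was listed in Gr of day 187 at 0.00402% with a listed 0 in T, so its ratio is not known. bc95 held 0.0137% of Gr and 0.00891% of T reads on day 119, and 0.0616% of Gr and 0.0533% of T on day 187. It held 0.0717% of Gr and 0.0589% of T on day 266. It was listed at 0 in Gr from day 365 on, when it held 0.0386 to 0.226% of T. In Mono it held 0.00473% on day 119, 0.0136% on day 187, 0.0367% on day 266 and 0.00381% on day 365, and was at 0 after that. bc65 had a like course, at 0.0143 to 0.0284% of Gr from day 119 to day 266 and at 0 in Gr from day 365 on.

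From day 119 on, the 7 barcodes from bc13 to bc28 were listed in Gr only on days 365, 494 and 553, and in Mono without a steady order. They were at 0 in Gr and Mono of day 119 and in Gr of days 187 and 266. A listed 0 in Gr stood for up to 0.00372% on day 119, 0.00387% on day 187 and 0.00351% on day 266. Some of the later Gr shares were below those limits, so the earlier zeros do not show a later rise. 6 of 7 were listed in Gr on day 365, 4 on day 494 and 7 on day 553, when Gr listed 18 barcodes in all. In Mono 3 were listed on day 187, 1 on day 266, 7 on day 365, 0 on day 494 and 2 on day 553. In Mono of day 365 they held 0.00778 to 0.0179% each, which was 0.962 to 1.46% of their T shares of that day. In Gr of day 553 they held 0.00284 to 0.00747% each, or 0.199 to 0.951% of their T shares.

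The same 7 were the members listed in nRBC and CD34p, and all but 3 of those in EOS. nRBC libraries listed 0 members on days 266 and 309, 7 on day 393, 2 on day 494 and 1 on day 553. On day 393 the 7 held 0.00273 to 0.00471% of nRBC reads, or 0.254 to 0.357% of their T shares, in a library that listed 201 barcodes. In EOS of day 494 they held 0.00921 to 0.0163%, or 0.220 to 0.373% of their T shares, and bc21 (0.0163%), bc19 (0.0158%) and bc18 (0.0135%) were highest. The other members listed in EOS were bc47, bc51 and bc52, at 0.00326 to 0.00438%. CD34p of day 553 listed bc15 at 0.00281% and bc18 at 0.00347%. In Gr of day 494, Mono of day 553 and CD34p a trace was 0.0491 to 0.303% of the same barcode's T share. Whether these reads came from T cells in the sorted fractions or from cells of the named lineage was not tested.

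The other 49 barcodes of at least 0.2% in T gave different counts from step to step. From day 393 to day 494, 22 of 34 members and 16 of 49 others had a higher share, and the median ratio of day 494 to day 393 was 2.03 for members and 0.898 for the others. From day 187 to day 266, 21 of 34 members and 14 of 49 others were higher, and from day 266 to day 365, 24 and 15. From day 119 to day 187 the counts were 17 of 34 and 29 of 49, with median ratios of 0.749 and 1.12. From day 365 to day 393 they were 26 and 36, from day 494 to day 536 5 and 9, and from day 536 to day 553 0 and 9. With the 6 barcodes of at least 5% mean in nRBC removed from the denominator, 19 members were higher from day 365 to day 393. On that basis 27 were higher from day 266 to day 365, 7 from day 494 to day 536 and 8 from day 536 to day 553. The other steps kept their member counts, and the others were not counted on that basis. The summed share of T was 8.78% for members and 34.9% for the others on day 119, and 40.1% and 32.6% on day 494. On day 553 the members held 11.2% and the others 61.8%. Those others include the 6 barcodes with a mean of at least 5% in nRBC. These 6 held 0.413% of T reads on day 119, 3.98% on day 494 and 48.9% on day 553. These counts rest on T libraries that the rule used and on barcodes that share time courses, so they were not tested.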

How the data were processed

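The authors deposited read counts in a single table, with a 50-base sequence on each line and 38 libraries as columns. The unit was read off the values, since all are integers and column totals differ. Per the labels' protocols, 200 ng of DNA went into a PCR of 28 cycles. The sources used here do not name the program that read barcodes, nor any rule for merging reads or dropping low counts. The column sum is therefore the reads of kept barcodes.

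Shares are percent of the column sum, computed with Python 3.11.15 and pandas 2.3.3. Libraries were grouped by the labelled cell type and day. Groups used complete linkage (SciPy 1.17.1). B slopes used edgeR 4.0.16 on the deposited counts, scaled by column sums, with Benjamini-Hochberg adjustment over all barcodes tested. DESeq2 1.42.0 was an alternative. The edgeR fit was also run on simulated counts with known slopes, and the DESeq2 fit was not. The share of those slopes that it recovered is not given here, so the absence of calls does not show how small a slope could be called. The labels give no batch and no separate animals, so libraries of a lineage are serial samples and p-values measure only the spread between them.

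The named barcodes were the 12 members highest in T, the 3 highest in B, the 3 highest at day 32, the 3 highest in nRBC, EOS or CD34p, the 3 latest to be listed, and the 3 on each side of each threshold, except where the text says otherwise. The 3 called members with the largest B slope in each direction would have been named too, but none was called. Members, groups and tests were chosen with earlier results of these data known. Alternatives covered the thresholds, denominators, the share that counts as listed, grouping, and the settings and libraries of the B fit.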

Additional observations from a re-analysis of the deposited data

Results flagged for a closer look

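44 sets of values over the libraries of a lineage were examined for 1 library far from the rest, and 11 stood apart. Chance gives about 1 in 20 for replicates, but these libraries are serial days. 8 of the 11 are high T shares of single members, and members were chosen for a high share in any T library, so their number is not to be read against chance. The number of members listed in T was lowest, at 0, on day 32. In nRBC the summed share (0.0265%) and the number listed (7) were highest on day 393. In T of day 119, bc50 (1.26%), bc51 (1.12%) and bc52 (1.12%) stood above their other days. In T of day 494 the same held for bc123 (0.321%), bc125 (0.303%), bc176 (0.328%) and bc210 (0.303%), and in T of day 536 for bc128 (0.322%). Day 494 was the shallowest T library, with 766039 reads. bc123, bc125, bc128 and bc210 were named after their values were seen.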

How the results depend on the processing

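The number of members was 82 with a T threshold of 0.1% and 15 with 0.5%. It was 27 with a Gr and Mono limit of 0.05%, 35 with 0.2% and 36 with libraries from day 187 on (32 of them members). Without any 1 T library it was 27 to 34, lowest without day 494. Merging sequences at 1 mismatch left 34, but 0 sequences were merged away, so that setting could not move the number. With the 6 leading nRBC barcodes removed from the denominator, the summed share in T was 8.82% on day 119, 9.54% on day 187, 11.9% on day 266, 14.8% on day 365, 15.6% on day 393, 41.7% on day 494, 35.9% on day 536 and 21.9% on day 553. In B it was 0.245% on day 266, 0.403% on day 365, 0.189% on day 393, 0.287% on day 494 and 0.246% on day 553. With 1 lowest share for every library, 0.0132%, 1 member was listed in B of day 32 and 20 in some B library of day 119 or later, against 12 and 31 as reported. There were 4 groups with r of 0.98, 8 with 0.90, 5 with either other pseudocount and 7 over T libraries alone. The B fit called 154 barcodes by DESeq2 and 10 with no filter, and 0 under each other setting, including without any 1 B library. No member was called under any of them. The slope of bc50 was below 0 and that of bc15 above 0 under each setting in which they were tested. They were picked as the lowest and highest member slopes, and the settings share most of their libraries, so a like sign is no separate support. How far the dropping of low counts hid traces was not tested.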

Other observations

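Members made up much of the few reads outside the 6 leading nRBC barcodes in some late libraries. Of those remaining reads they held 30.3% in EOS of day 494 and 41.7% in T of the same day. In Gr of day 553 they held 17.2%, in Mono of day 553 5.39% and in CD34p 4.19%, against 21.9% in T of day 553. In Gr of day 494 the value was 0.241%. The 6 leading barcodes held 94.1 to 99.9% of those Gr, Mono, EOS and CD34p libraries, and a barcode of up to 100 reads is listed at 0, so most rare barcodes are missing from these denominators.

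1 member, bc144, was listed in T alone, in 7 libraries from day 187 on, with 0.269% on day 494. bc144 was named after its values were seen.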
